A study of Mus musculus with 2 samples.

Results

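The genes described here mark 2 neighbouring states of the stromal cells of mouse subcutaneous fat, the committed preadipocyte marked by ICAM1 and the regulatory stromal cell marked by tissue factor (F3, also called CD142). The 10 names chosen for them resolve to 9 genes of the 19938 measured, because Cd142 is a synonym of F3. Icam1, Vcam1, Aoc3 and Ggt5 stand for the committed state, and F3, Clec11a, Fmo2, Abcg1 and Gdf10 for the regulatory state. Each gene is read by 1 probe set that names no other gene.

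Fat grows by recruiting new adipocytes from fibroblast-like precursors that carry PDGFRα. In mouse subcutaneous fat, early progenitors marked by DPP4 are held to give rise to preadipocytes marked by ICAM1, which already carry part of the adipocyte programme. A further stromal population marked by CD142 was reported to restrain adipogenesis of its neighbours in one line of work, and to form adipocytes itself in another.

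RNA came from PDGFRα+ cells that were sorted out of the inguinal stromal vascular fraction, the non-adipocyte cells that collagenase frees from this white fat depot. The donors were female mice aged 6 weeks, of either the Sox9 floxed or the Sox9 PreASKO genotype, and both groups had been given doxycycline at postnatal day 1. The promoter that drives the deletion in PreASKO and the strain are not given in the labels used here, and no label names a group with the driver alone. Each group is 1 array that holds RNA pooled from 3 mice per the series' design text, so that the differences carry neither error nor p-value and no replicate stands behind them. Values are the deposited log2 values, and differences are PreASKO minus floxed. The series names 1.5-fold as its limit, which is 0.585 on this scale.

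Sox9, the targeted gene, was at 5.25 in floxed and 4.97 in PreASKO, a difference of -0.27 that stays inside the limit, so Sox9 does not by itself separate the labels. The sorting marker Pdgfra was at 9.86 and 9.55. Medians over all probe sets were 4.73 and 4.71. Among 1027 olfactory receptor genes, taken as silent in these cells, the 95th percentile was 4.64 in floxed and 4.47 in PreASKO, and the higher value serves as the mark of background. Sox9 lay near this mark on both arrays, which leaves it little room to show a loss. All 9 marker genes lay above this mark on both arrays, so both sets of markers were detected in the sorted cells. In bulk RNA, fewer cells of a type and less RNA per cell cannot be told apart, and neither can the shares of the 2 states.

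Icam1 and Vcam1 were slightly higher in PreASKO, whereas F3, Clec11a, Fmo2 and Abcg1 were lower. None of the 9 genes reached 1.5-fold, against 3.64% of all genes in either direction (1.66% higher and 1.98% lower). F3 had the widest difference, 1.30-fold lower, and Icam1 the widest in the other direction, 1.15-fold higher. At a limit of 1.2-fold F3 alone passed, 1 of 9 genes, against 27.7% of all genes (13.7% higher and 14% lower). The markers' counts were thus not above those of genes at large.

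**Figure D1:**
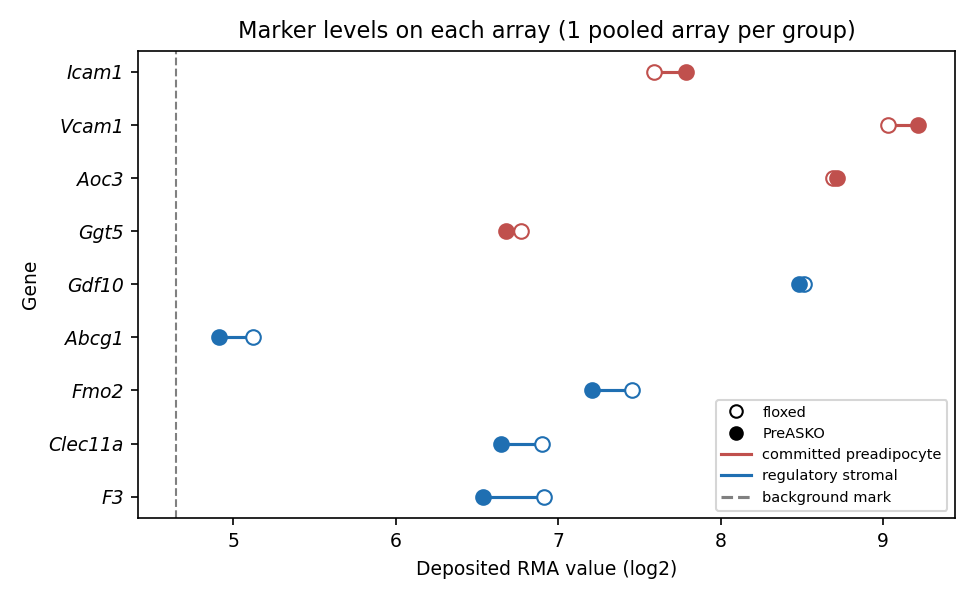
Deposited log2 value (x axis) of each marker gene (y axis) on the floxed array (open circle) and the PreASKO array (filled circle), with committed preadipocyte markers in red, regulatory stromal markers in blue and the background mark of 4.64 as a dashed line. Levels are to be compared along a row only, since probe sets differ in brightness; all 5 blue rows run to the left in PreASKO and 3 of the 4 red rows to the right.

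The committed preadipocyte markers were considered first. Icam1 encodes an adhesion molecule of the immunoglobulin superfamily that is bound by leukocyte integrins, and its protein is the sorting marker of the committed state. It was at 7.59 in floxed and 7.78 in PreASKO, a difference of 0.20. A difference at least this far in the same direction was seen in 20.6% of all genes. Vcam1, the adhesion molecule bound by integrins of the alpha 4 chain (Itga4), was at 9.03 and 9.21, a difference of 0.18. Of all genes 22.6% were at least as far above floxed. Among genes above background the shares were 21.8% for Icam1 and 23.8% for Vcam1.

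Aoc3 encodes an amine oxidase of the cell surface, also known as vascular adhesion protein, which is abundant in fat and smooth muscle. It was at 8.69 and 8.72, a difference of 0.03. Ggt5 encodes a gamma-glutamyltransferase that cleaves glutathione conjugates, leukotriene C among them. It was at 6.77 and 6.68, a difference of -0.10, and was the only committed marker that was lower in PreASKO. The 4 committed markers had a median difference of 0.10, with 3 higher and 1 lower.

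All 5 regulatory stromal markers were lower in PreASKO, with a median difference of -0.24. F3 encodes tissue factor, the transmembrane receptor of coagulation factor VII that starts clotting when blood meets the cells around vessels. Its level was 6.91 in floxed and 6.53 in PreASKO, a difference of -0.38, and 7.02% of all genes were at least as far below floxed. Clec11a encodes a secreted C-type lectin known in mouse bone as osteolectin, a factor that promotes bone formation. It was at 6.90 and 6.65, a difference of -0.25 that 14.6% of all genes reached or passed. Fmo2, a flavin-containing monooxygenase that oxidises foreign compounds, was at 7.45 and 7.21. Its difference was -0.24, which 15.5% of all genes reached or passed. Among genes above background the shares were 5.27% for F3, 11.7% for Clec11a and 12.5% for Fmo2.

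Abcg1 encodes a transporter that passes cholesterol from cells to lipoprotein particles. It was at 5.12 and 4.91, a difference of -0.21 that 18.9% of all genes, and 15.4% of those above background, reached or passed. Abcg1 was the dimmest marker, and 1.95% of the olfactory receptor genes were at or above its floxed level, so its difference rests on a signal near background. Gdf10, a ligand of the TGF-beta family also called Bmp3b, was at 8.51 and 8.48, a difference of -0.03. The lower values of the regulatory markers were therefore those of 4 genes, with Gdf10 nearly level.

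Differences of this size were common on these arrays. The middle 95% of all genes ran from -0.55 to 0.52, and all 9 markers lay inside it. The middle 50% ran from -0.16 to 0.16. Of the markers, 2 lay above it (Icam1 and Vcam1), 4 below it (F3, Clec11a, Fmo2 and Abcg1) and 3 inside it. By construction the outer parts of the distribution hold 50% of all genes. The median over all genes was 0, with 48.2% of them higher and 48.0% lower. This balance differed with level. Of the 11800 genes above background 53.0% were higher and 45.4% lower, with a median of 0.02. The olfactory receptor genes leaned the other way, with 33.7% higher, 57.9% lower and a median of -0.08.

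**Figure D2:**
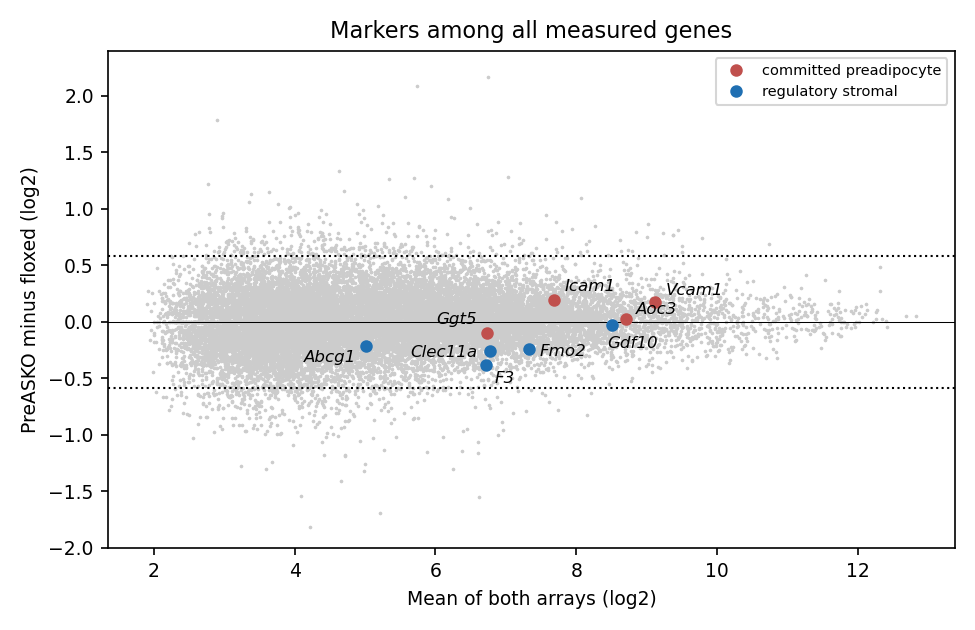
Difference PreASKO minus floxed (y axis, log2) against the mean of both arrays (x axis, log2) for each of 19938 genes (grey), with the marker genes coloured and dotted lines at 1.5-fold. The markers lie between -0.38 and 0.20, inside both lines and within the body of the grey points.

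Setting the groups beside each other, the committed median lay 0.35 above the regulatory median. Of the 20 pairs of one committed and one regulatory gene, 19 had the higher difference in the committed gene, and in the pair of Ggt5 and Gdf10 it was the other way. The widest pair was Icam1 and F3, whose differences stood 0.57 apart. The ranges met, since the committed markers ran from -0.10 to 0.20 and the regulatory markers from -0.38 to -0.03. With each marker left out in turn the distance between the medians ran from 0.27 to 0.42. The pairs reuse the same 9 differences, so they are not separate observations, and the markers are not replicates of the contrast. The markers were also chosen with earlier results of these data known. No test of this distance was possible with 1 array per group.

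Promoter bases are shown for F3 and Clec11a, the markers with the most negative differences, and for Icam1, with the most positive difference. A link between these bases and the differences was not tested. RefSeq promoters of build GRCm38.p6 were found for 5 of the 9 genes (F3, Clec11a, Fmo2, Gdf10 and Icam1), as 6 windows. Each line holds the 250 bases before the annotated start, 5′ to 3′ on the gene's strand. Capitals mark matches to the AP-1 motif TGANTCA, the GC box GGGCGG bound by SP1, and GGAAATTCC, the NF-kB site letters known from the human ICAM1 promoter, each searched on both strands.
F3 (chr3:121723287-121723536, plus strand): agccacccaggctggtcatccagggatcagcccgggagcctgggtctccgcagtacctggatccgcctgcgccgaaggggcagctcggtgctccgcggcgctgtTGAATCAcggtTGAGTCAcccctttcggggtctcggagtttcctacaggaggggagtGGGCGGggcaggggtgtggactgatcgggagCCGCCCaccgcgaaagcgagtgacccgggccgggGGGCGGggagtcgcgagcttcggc
Clec11a (chr7:44306960-44307209, minus strand): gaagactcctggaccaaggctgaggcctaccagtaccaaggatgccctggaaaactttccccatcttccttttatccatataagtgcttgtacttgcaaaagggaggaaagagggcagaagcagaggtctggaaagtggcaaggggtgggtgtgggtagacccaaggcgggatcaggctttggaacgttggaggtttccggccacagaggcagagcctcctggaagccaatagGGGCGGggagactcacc
Icam1 (chr9:21015690-21015939, plus strand): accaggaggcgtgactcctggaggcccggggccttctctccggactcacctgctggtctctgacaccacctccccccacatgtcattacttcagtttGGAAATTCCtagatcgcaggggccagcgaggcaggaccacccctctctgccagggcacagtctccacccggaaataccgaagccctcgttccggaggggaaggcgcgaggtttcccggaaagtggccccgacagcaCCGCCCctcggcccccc

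The F3 window held 2 AP-1 matches, which begin 146 and 135 bases before the start, and 3 GC boxes. It was the only one of the 6 marker windows with an AP-1 match, and 6.75% of the 32851 windows of all genes had one. The Icam1 window held GGAAATTCC 153 bases before the start, letters found in 0.286% of all windows, and 1 GC box. GC boxes were in 4 of the 6 marker windows and in 32.7% of all windows. The Clec11a window had 1 GC box and neither of the other motifs. The letters AACAAT, a core bound by SOX proteins, and TGACAG, a core bound by MEIS proteins, were in none of the 6 marker windows, against 9.42% and 15.9% of all windows. The TATA box letters TATAAA were in none of them either, against 12.4% of all windows. A match of letters describes the window, is no evidence of a site in use, and the absence of one says nothing of the factor.

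Wider lists of genes linked to the same states did not split in the way of the 9 markers. How specific these genes are to either state in these cells was not tested. Of 18 further committed preadipocyte genes 9 were higher and 9 lower, none by 1.5-fold, with a median difference of 0.01. Lifr, the receptor of leukaemia inhibitory factor, was higher by 0.49 and the fatty acid transporter gene Cd36 by 0.38, while the oestrogen receptor gene Esr1 was at -0.38 and Col15a1, a collagen of basement membranes, at -0.24. Of 17 measured further regulatory stromal genes 8 were higher and 9 lower, none by 1.5-fold, with a median of -0.03. Inmt, a methyltransferase of small amines, had the most negative difference, with 8.74 in floxed and 8.19 in PreASKO. Among genes above background it was followed by the elastic fibre gene Fbln5 (-0.33) and Bmp4 (-0.30). In the other direction Timp3, an inhibitor of matrix proteases, differed by 0.35 and Gas6, a ligand of the TAM receptor kinases, by 0.24. The median of -0.24 over the 5 regulatory markers was thus not seen in the wider list. Early progenitor markers had a median of -0.04 over 13 measured genes, with 5 higher, 8 lower and none past 1.5-fold. Sema3c at -0.34 and Creb5 at 0.23 were their extremes.

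**Figure D3:**
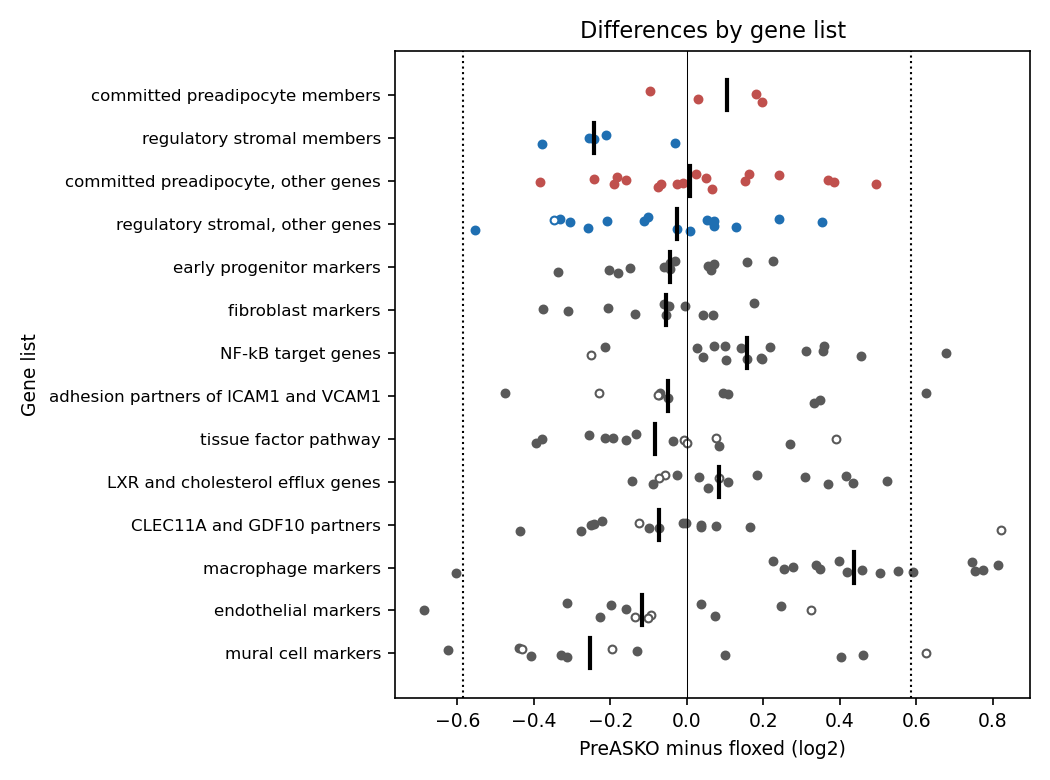
Difference PreASKO minus floxed (x axis, log2) of each gene in the lists on the y axis, with a black bar at the list's median, dotted lines at 1.5-fold and open points for genes below background on both arrays. The wider committed and regulatory lists are centred near 0 (0.01 and -0.03), the NF-kB list lies mostly to the right and the macrophage markers have a median of 0.44.

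Icam1 and Vcam1 are textbook targets of NF-kB, the transcription factor of inflammatory signalling. Of 17 other measured NF-kB pathway and target genes 15 were higher in PreASKO and 2 lower, with a median of 0.16. The coactivator gene Bcl3 passed 1.5-fold (6.60 and 7.28), and Cd40, a receptor of the TNF receptor family, differed by 0.45. Sele, an adhesion molecule of activated endothelium, was at -0.21. Icam1 and Vcam1 were at 0.20 and 0.18, which 20.6% and 22.6% of all genes reached or passed in that direction. The part of NF-kB in these differences was not tested. Among the binding partners of ICAM1 and VCAM1 the integrin chain genes Itgb2 (0.63, past 1.5-fold), Itgam (0.35) and Itga4 (0.33) were higher, whereas the membrane linker gene Ezr was at -0.47. Their list had 5 higher and 6 lower genes of 11 and a median of -0.05. Over the 9 above background the sign turned, with 5 higher, 4 lower and a median of 0.10. Itgb2 and Itgam are chains of leukocyte integrins. Of 9 adhesion molecules related to ICAM1 and VCAM1 2 were higher and 6 lower, with Icam2 at 0.08, Mcam at -0.31 and a median of -0.03. Pecam1 was at 4.79 and 4.48, which is below background in PreASKO.

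Macrophages also express Icam1, Vcam1 and Abcg1, so their markers are given beside these genes. The sort for PDGFRα is a gate meant to leave out macrophages and the other cell types whose markers follow, and the labels name no further gate against them. Of 16 macrophage markers 15 were higher in PreASKO, with a median of 0.44, and their summed level was 13.11 in floxed and 13.61 in PreASKO on the log2 scale. None lay below background. H2-Ab1 (0.81), Tyrobp (0.77), C1qa (0.75), Cd74 (0.75) and Fcer1g (0.59) were past 1.5-fold, and Cx3cr1 was past it in the other direction (-0.60). The part of these cells in the differences of Icam1, Vcam1 and the NF-kB list was not tested. Abcg1 was lower while these markers were higher. Lymphocyte markers had a median of 0.16 over 10 genes, 7 higher and 3 lower, with Cd3e at 0.88. Of the 10, 6 were below background on both arrays, among them Il7r (0.61), which passed the limit, Cd4 (-0.53) and Cd3d (-0.10). Their summed level was 8.10 in floxed and 8.44 in PreASKO.

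Endothelium expresses Icam1, Vcam1 and Aoc3 as well. Of 12 endothelial markers 4 were higher and 8 lower, with a median of -0.12 and a summed level of 9.27 and 9.13. The VEGF receptor gene Kdr was past 1.5-fold (-0.69), whereas Cldn5 was at 0.25. Tie1, Erg, Emcn and Esam were below background on both arrays. Pericytes and smooth muscle express Aoc3 and Vcam1. Of 12 mural markers 4 were higher and 8 lower, with a median of -0.25 and a summed level of 9.26 and 9.04. Over the 9 above background 3 were higher and 6 lower. Kcnj8 was past 1.5-fold (-0.62) and Acta2 was at -0.44, whereas Notch3 was at 0.46 and Myh11 at 0.40. Myh11 lay below background in floxed. Des, Higd1b and Cnn1 lay below background on both arrays, and Cnn1 passed the limit there. The part of either cell type in the marker differences, those of F3 and the other regulatory markers included, was not tested. Fibroblast markers had a median of -0.05, with 3 of 11 higher and 8 lower, and a summed level of 14.58 and 14.56. With their median set to 0, F3 was at -0.32, Clec11a at -0.20, Fmo2 at -0.19, Abcg1 at -0.16, Icam1 at 0.25 and Vcam1 at 0.23.

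Mature adipocytes express Aoc3, and their markers had a median of 0.02 over 8 measured genes, 5 higher and 3 lower. Of these, Adipoq, Lep, Retn and Cidec were below background on both arrays. Mesothelial and epithelial markers had a median of 0.04 over 10 genes, 8 of them below background on both arrays. Proliferation markers were lower in all 11 measured genes, 10 of them past 1.5-fold, with a median of -1.16. Only 6 of the 11 were above background on both arrays. Of these, Mki67 (-1.30), Ccnb2 (-1.16), Top2a (-1.14), Aurkb (-0.89) and Birc5 (-0.70) passed the limit. Prc1, Plk1, Tpx2, Bub1b and Rrm2 also passed it, but lay below background in PreASKO, so that the size and order of their differences are not measured. With values raised to background the median was -0.99. Their part in the marker differences was not tested.

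Genes around the regulatory markers were then read. Of 14 measured genes listed around tissue factor, from clotting to clot removal, 4 were higher and 9 lower, none by 1.5-fold, with a median of -0.08. Factor X (F10) was at 4.79 and 4.39, which is below background in PreASKO. The protease inhibitor gene Tfpi2 (-0.38) and the plasminogen activator gene Plat (-0.25) were lower like F3, whereas Tfpi, which encodes the main inhibitor of the tissue factor complex, was higher by 0.27. F7, the ligand of tissue factor, lay below background on both arrays. Over the 10 members above background the median was -0.18. Each of these differences was narrower than the 1.5-fold limit.

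Of 15 genes around Clec11a and Gdf10 5 were higher and 10 lower, with a median of -0.07. Bmp3, the closest relative of Gdf10, was at 4.97 and 4.54, so that it lay below background in PreASKO, and the signal transducer gene Smad2 differed by -0.28. The receptor genes of the TGF-beta family went both ways, with Tgfbr1 at -0.25 and Tgfbr2 at 0.17. Itga11, the integrin chain that serves as receptor of CLEC11A in mouse bone, was at 7.38 and 7.31, a difference of -0.07. Gdf5 passed 1.5-fold, but lay below background on both arrays.

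Abcg1 was lower, while most genes of a mixed list of cholesterol and lipid genes were higher. Only some of them act in efflux. Of 15 measured genes 10 were higher and 5 lower, none by 1.5-fold, with a median of 0.08. Over the 12 above background 9 were higher and 3 lower, with a median of 0.15. Pltp, a phospholipid transfer protein gene, differed by 0.52, Nr1h3, which encodes the LXR receptor that drives Abcg1, by 0.44, and the lipoprotein receptor gene Scarb1 by 0.42. Abca1, the partner of Abcg1 in efflux, was at 7.95 and 7.92, a difference of -0.03. Pltp and Nr1h3 are also expressed by macrophages, whose markers were higher by a median of 0.44, and their part was not tested. Among related transporters Abcg2 differed by 0.23 and Abcg3 by -0.40. The 7 paralogs of Abcg1 and Clec11a had 4 higher and 3 lower genes and a median of 0.03, with Clec3b at -0.17. Over the 6 above background the median was -0.01.

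Of the flavin monooxygenase and amine oxidase genes beside Fmo2 and Aoc3, 3 were higher and 6 lower of 9 measured, with a median of -0.10. Fmo1 was at -0.10 and Fmo5 at -0.20, both lower like Fmo2, and Lox, the enzyme that crosslinks collagen and elastin, was at -0.29. The monoamine oxidase genes differed in direction, with Maoa at 0.28 and Maob at -0.30. The glutathione and leukotriene genes around Ggt5 had a median of 0.09 over 14 genes, 8 higher and 6 lower. The sign turned over the 11 genes above background, whose median was -0.04 with 5 higher and 6 lower. Alox5ap, the helper protein of leukotriene synthesis, passed 1.5-fold (8.32 and 8.94), and the leukotriene C synthase gene Ltc4s differed by 0.54, while Ggt5, which acts on its product, was at -0.10. Both synthesis genes are expressed by leukocytes. The glutathione reductase gene Gsr was at -0.17.

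**Figure D4:**
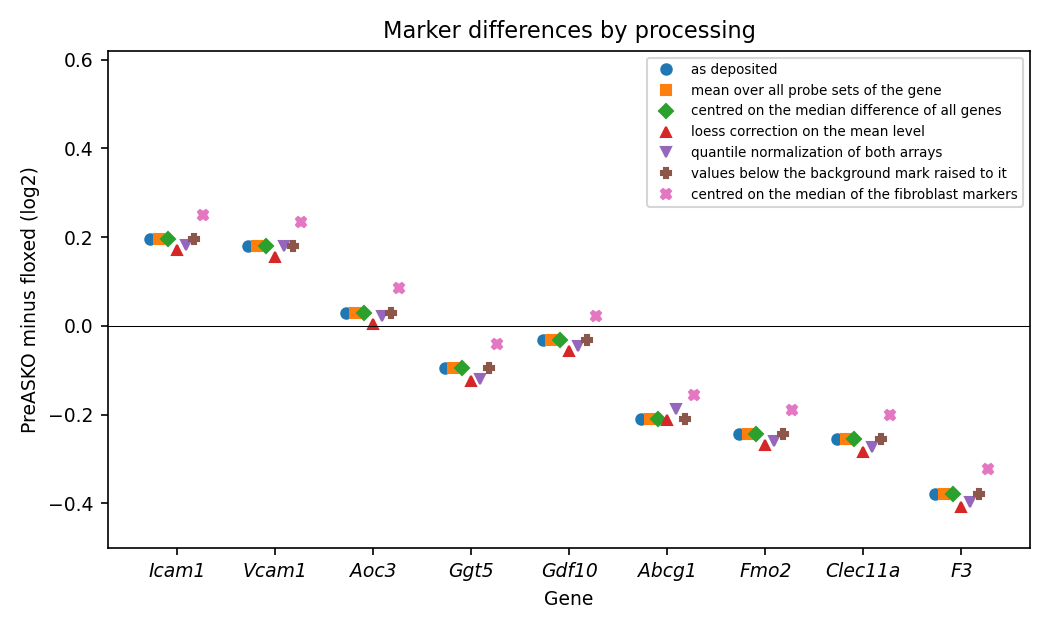
Difference PreASKO minus floxed (y axis, log2) of each marker gene (x axis) with the values as deposited and under 6 other ways of processing, 3 of which (probe set mean, centring on all genes, raising to background) leave the markers unchanged by construction. The sign of Gdf10 turned, from -0.03 to 0.02, when the median of the fibroblast markers was set to 0, and no other marker changed sign.

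Of the 6 other ways of processing, 3 leave every marker at its deposited difference by construction, since each marker has 1 probe set, the median over all genes is 0 and all markers lie above background. Under the other 3 (loess, quantile normalization and centring on the fibroblast markers) the markers other than Gdf10 kept their sign. F3 ran from -0.41 to -0.32 and Icam1 from 0.17 to 0.25. Aoc3 ran from 0.0044 to 0.0845, which leaves it close to level throughout.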

How the data were processed

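A pooled RNA of PDGFRα+ cells per genotype was measured, each on 1 array. Per the submitters' processing notes the authors summarised the arrays with RMA, which corrects background, makes arrays alike and summarises probes. No version is given in the sources used here. The deposited values are taken as log2 from their range, 1.23 to 13.8. RMA understates differences of dim genes.

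Genes of the probe sets come from the platform's annotation table, whose symbols may be dated. Those naming 1 gene (21789 of 35556) gave 19938 genes, the probe set with the highest mean being used for 999 genes with several. Differences were taken per gene and no test was made. The members and the 22 gene lists (254 of 267 genes measured) were chosen with earlier results of these data known, and the list genes named are up to 3 extremes per direction above background and those past 1.5-fold. Itga11, Abca1, Fmo1, Icam2, F7 and the genes given as below background were named for their role. Alternatives were probe set averaging, centring, loess (span 0.3), quantile normalization, background floors and fold limits. Centring on fibroblast markers was added after seeing the data. Recovery of planted shifts wider than 1.5-fold was checked on simulated data, for uncorrected values, loess and quantile normalization only. Shifts as small as those of the markers were not simulated. Python 3.11.15, pandas 2.3.3, numpy 2.4.6, statsmodels 0.14.6 and matplotlib 3.10.9 were used. The number of arrays limits the precision.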

Additional observations from a re-analysis of the deposited data

How the results depend on the processing

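No paired analysis was possible because a group holds 1 array, which also leaves no replicate to drop. Each marker has 1 probe set, so other probe sets gave no value. Every marker difference and the distance between the marker groups moved by less than 0.1 under every setting run, of which the probe set mean, centring on all genes and raising to background cannot move them by construction. Centring on the fibroblast markers shifts every marker by the same amount, so it cannot move the distance either. The 331 higher and 394 lower genes past 1.5-fold became 2723 and 2795 at 1.2-fold, 22 and 29 at 2-fold, 209 and 172 over genes above background, 161 and 107 over genes with a higher value of at least 5.18, the median of the higher values, and 161 and 103 with values raised to background. With values raised to background the medians of the FMO and AOC paralogs, endothelial markers and lymphocyte markers were 0, that of mural markers -0.0652 and that of proliferation markers -0.9898. Keeping genes above background moved adhesion partners to 0.0959, glutathione and leukotriene genes to -0.0373, lymphocyte markers to 0.301 and mesothelial and epithelial markers to 0.345. The lymphocyte value rests on 4 genes and the mesothelial and epithelial value on 2. The floor at 5.18 gave 0.108, -0.0373, 0.674 and 0.345 for the same lists, 0.128 for ABCG and CLEC paralogs, -0.165 for adhesion molecule paralogs and -0.36 for mural markers. At this floor the lymphocyte value is the midpoint of Cd3e (0.88) and Ptprc (0.47) alone. These settings test fewer genes or remove dim differences by construction.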
